A study of Mus musculus with 20 samples.

Results

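The mouse genes whose human homologs lie beside *UBE3A* in chromosome 15q11-q13 were followed through the data, 7 in all: *Tubgcp5*, *Cyfip1*, *Nipa2*, *Nipa1*, *Herc2*, *Oca2* and *Atp10a*. They were taken by their gene symbols, and all 7 were found among the 47729 genes of the count tables. The data are mRNA sequencing reads of hippocampus and cortex at postnatal day 7, from 5 wild-type (WT) mice, numbered 1 to 5, and 5 *Ube3a*+2 mice, numbered 6 to 10, so 20 libraries from 10 mice. All mice were of the C57Bl/6J strain. *Ube3a*+2 mice (Ube3aOE in the labels) carry a bacterial artificial chromosome transgene with *Ube3a* and stretches of its flanking sequence, in addition to their own copies of the gene. The transgene is driven by *Ube3a*'s own flanking sequence. The study made more than one transgenic line and worked mainly with line E, and the labels do not name the line of the sequenced mice. The labels name 3 females and 2 males among the WT mice and 2 females and 3 males among the *Ube3a*+2 mice.

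Duplications of 15q11-q13 in people raise the copy number of many genes together, whereas the transgene was built to add *Ube3a*, which codes for a HECT-domain ubiquitin ligase made in neurons mainly from the maternal copy. The members have unrelated jobs. TUBGCP5 is a subunit of the gamma-tubulin ring complex, from which microtubules grow. CYFIP1 belongs to the WAVE regulatory complex, which sets off branched actin assembly downstream of RAC1, and it also binds the RNA-binding protein FMRP and the cap-binding factor eIF4E at synapses. NIPA1 and NIPA2 are membrane proteins that carry magnesium, and mutations of *NIPA1* cause a hereditary spastic paraplegia. HERC2 is a giant ubiquitin ligase of the same class that binds UBE3A and raises its activity. OCA2 is a melanosome membrane protein needed for pigment, and ATP10A is a P4-ATPase, a flippase that moves phospholipids between the leaflets of a membrane. The comparison of genotypes asks how the levels of these neighbours compare when *Ube3a* is in excess, and the comparison of regions asks where in the forebrain each was higher.

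In the mouse the members lie on chromosome 7 (build GRCm38) in the order in which they are listed above. *Tubgcp5* (55794154 to 55831677, plus strand), *Cyfip1* (55841745 to 55932602, plus), *Nipa2* (55931287 to 55962476, minus), *Nipa1* (55977567 to 56019954, minus), *Herc2* (56050196 to 56231800, plus) and *Oca2* (56239760 to 56536518, plus) form a tight run with gaps of at most 30.24 kb. *Atp10a* (58656166 to 58829420, plus) lies 2119.65 kb beyond *Oca2* and 399.33 kb before *Ube3a* (59228750 to 59311536, plus). It is thus the member nearest to *Ube3a*, while the other 6 are between 2692.23 and 3397.07 kb away. By the sizes that the paper gives for its flanking sequence, the transgene holds none of the members. The distances are to the mouse's own *Ube3a*, not to the added copies. The paper mapped the transgene of lines C and E to another chromosome. The 3′ ends of *Cyfip1* and *Nipa2* overlap on opposite strands by 1316 exonic bases, 11.0% of the merged exon length of *Cyfip1* and 18.6% of that of *Nipa2*. *Nipa1* shares 473 exonic bases with the antisense transcript *A230056P14Rik*, which had 22 to 51 counts per library. The libraries were made with a stranded kit, but the strand setting of the counting is not given in the sources used here, so reads in these stretches may have been set aside or given to either gene.

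The start regions were compared by their content of CG. Of the 7 members, 6 have an entry in the RefSeq promoter table (GRCm38.p6), which was read for the 250 bases before each start. RefSeq starts can differ from the gene positions given above. The windows of *Nipa1* (56019601 to 56019850) and *Atp10a* (58657952 to 58658201) lie inside those positions. That of the second *Herc2* entry (56050139 to 56050388) lies partly inside. The dinucleotide CG, the site of DNA methylation, reads the same on both strands and was counted without overlaps. It occurred 12 times before *Tubgcp5*, 12 times before *Nipa2*, 18 times before *Nipa1*, 20 times before the first of 2 *Herc2* entries and 35 times before the second, 14 times before *Atp10a* and 2 times before *Oca2*, against a median of 6 over 32851 promoters. *Herc2* and *Oca2* are next-door genes, 7.96 kb apart, on the same strand, and at opposite ends of this count among the members. Their windows, chr7:56049905-56050154 for the first *Herc2* entry and chr7:56239509-56239758 (plus strand, 5′ to 3′), are shown because these neighbours also differed widely in level, with each CG in capitals.
*Herc2*: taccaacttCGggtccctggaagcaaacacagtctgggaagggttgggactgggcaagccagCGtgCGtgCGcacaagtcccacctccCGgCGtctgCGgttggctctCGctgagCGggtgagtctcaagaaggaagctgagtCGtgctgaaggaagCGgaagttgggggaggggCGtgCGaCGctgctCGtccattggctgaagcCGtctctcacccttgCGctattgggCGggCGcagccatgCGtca
*Oca2*: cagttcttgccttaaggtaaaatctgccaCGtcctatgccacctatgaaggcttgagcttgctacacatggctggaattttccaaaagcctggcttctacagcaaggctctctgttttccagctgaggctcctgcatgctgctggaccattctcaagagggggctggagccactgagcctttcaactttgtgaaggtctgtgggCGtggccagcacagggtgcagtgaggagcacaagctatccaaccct
The *Herc2* window held more CG than 82.05% of all promoters of the table, and the *Oca2* window more than 18.82%. These are counts of letters and say nothing about the methylation of either window.

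Each library had between 14191093 and 16752326 reads counted on genes. The tissue labels were checked on marker genes. Of 7 hippocampal neuron markers 6 were higher in hippocampus by the test and 1 lower, and of 7 neocortical markers 4 were lower and 1 higher. The hippocampal markers' summed level was 811 to 1151 CPM (counts relative to the normalized library total) in the 10 hippocampus libraries against 565 to 716 in the 10 cortex libraries. Several hippocampus libraries stood apart on markers of neighbouring tissue. The library of WT mouse 2 had 645 CPM of 7 neocortical markers, against 213 to 392.2 in the other hippocampus libraries and 633 to 852 in cortex. Choroid plexus markers (5 genes) summed to 1938 CPM in mouse 7 and 343 in mouse 9, and to 6.97 to 31.7 in the other hippocampus libraries, striatal markers (5 genes) to 298 CPM in mouse 9 against 29.4 to 57.6, and thalamic markers (5 genes) to 1153 CPM in mouse 10, 582 in mouse 7 and 507 in mouse 4 against 152 to 229. None of these marker genes was at 0 in all libraries. In WT mice 3 and 5 the genes of the X and Y chromosomes went against the labelled sex, in both tissues of each mouse.

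*Ube3a* was measured first as the check of the genotype labels. In hippocampus its level was 69.5, 76.8, 57.1, 60.2 and 59.9 CPM in WT mice 1 to 5, and 142.5, 147.4, 183.3, 142.9 and 194.7 CPM in *Ube3a*+2 mice 6 to 10. In cortex it was 58.6, 54.4, 70.0, 60.2 and 62.1 CPM in WT mice and 136.1, 129.8, 180.6, 129.6 and 181.8 CPM in *Ube3a*+2 mice. The genotypes did not overlap in either tissue, with a 2.50-fold difference in hippocampus and 2.49-fold in cortex (edgeR's quasi-likelihood test, adjusted *P* = 0.000441 and 0.000822 over all genes tested).

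**Figure D1:**
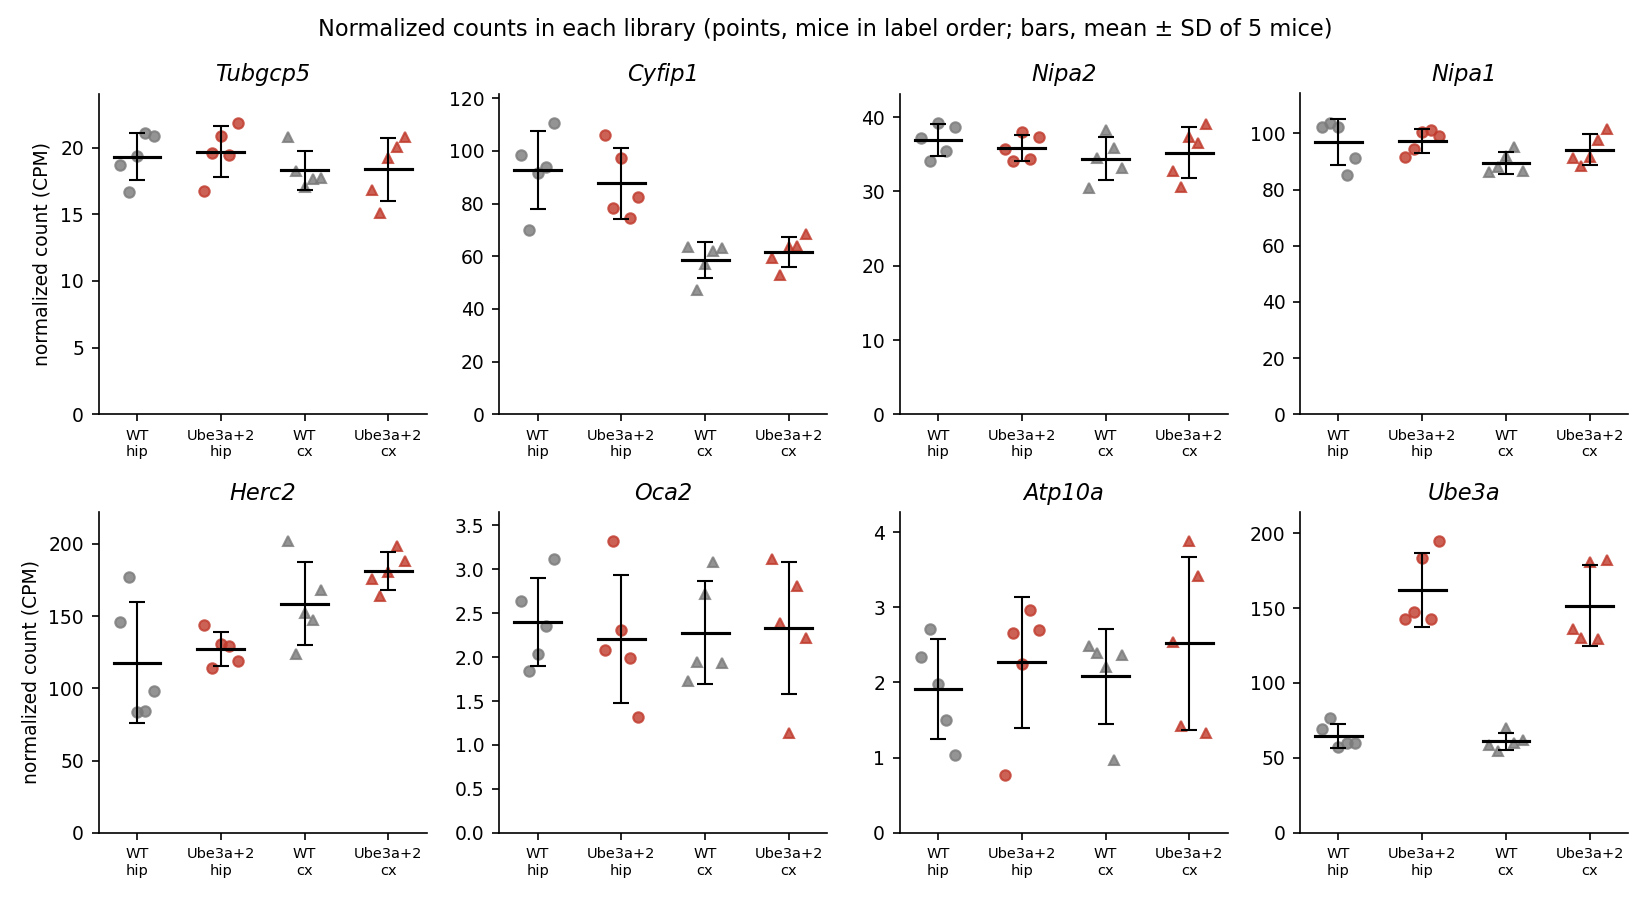
Normalized counts (CPM, y axis from 0) of the 7 members and *Ube3a* in the 4 groups (hip, hippocampus; cx, cortex); each point is 1 library, and bars are the mean ± SD of 5 mice. *Ube3a* separates the genotypes, *Cyfip1* separates the regions, and *Herc2* spreads from 83.4 to 177 CPM within WT hippocampus.

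No member passed the test between genotypes. All 7 passed the filter on low counts in each comparison, and none had an adjusted *P* value under 0.05 in hippocampus, in cortex or with the reads of both tissues of a mouse summed. None had an unadjusted *P* value under 0.05 either, and DESeq2 also called 0 of 7 in each comparison. Over all genes the share called was 0.00657% in hippocampus, 0.00669% in cortex and 0.00612% with both tissues summed, which in each case is *Ube3a* itself. The median log2 fold change of the members was 0.00 in hippocampus, 0.07 in cortex and 0.02 with both summed, beside 0.00 over all genes tested in each comparison.

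The members differed in how closely their levels were bounded. *Nipa1*, with 1177 to 1746 counts per library, had a mean of 97.0 ± 8.25 CPM (SD, n = 5) in WT hippocampus and 97.3 ± 4.21 CPM in *Ube3a*+2 hippocampus. With both tissues summed its log2 fold change was 0.04 (95% confidence interval -0.07 to 0.14), so the interval allowed a rise of at most 10.0%. *Nipa2*, at 34.1 to 39.3 CPM in all hippocampus libraries and 30.4 to 39.1 CPM in cortex, had a change of 0.00 (-0.13 to 0.12), and the interval allowed a rise of at most 8.86%. For *Tubgcp5*, at 15.1 to 21.9 CPM in the 20 libraries, the change was 0.02 (-0.14 to 0.18). The genotypes of these 3 genes overlapped in both tissues. For *Nipa1* in cortex all 5 *Ube3a*+2 libraries were above the WT median of 88.0 CPM, with a log2 fold change of 0.08 (standard error (SE) 0.05, adjusted *P* = 0.96), whereas in hippocampus 0 of 5 were above the WT median of 102.3 CPM (log2 fold change 0.00, adjusted *P* = 0.994).

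*Herc2* is the member whose product acts on UBE3A itself. In hippocampus it was at 145.7, 177.3, 83.4, 84.0 and 98.3 CPM in WT mice 1 to 5 and at 144.1, 113.9, 130.7, 129.1 and 119.2 CPM in *Ube3a*+2 mice 6 to 10. The *Ube3a*+2 libraries lay inside the WT range, in the gap between WT mice 1 and 2 above and WT mice 3, 4 and 5 below. The log2 fold change was 0.11 (SE 0.21, 95% confidence interval -0.36 to 0.58, adjusted *P* = 0.897). In cortex it was at 201.9, 123.9, 151.9, 147.3 and 168.1 CPM in WT mice and at 175.4, 163.8, 180.8, 198.8 and 187.9 CPM in *Ube3a*+2 mice. Again all 5 *Ube3a*+2 libraries were above the WT median, and all were below WT mouse 1. The log2 fold change in cortex was 0.20 (SE 0.11, -0.04 to 0.43, adjusted *P* = 0.96, unadjusted 0.0967). With a mouse left out in turn, the cortical estimate ran from 0.11 (without mouse 2) to 0.30 (without mouse 1). With both tissues summed the log2 fold change was 0.16 (-0.07 to 0.40, adjusted *P* = 0.81), an interval that allowed a rise of at most 31.6%. Without the 5 hippocampus libraries named above for markers of neighbouring tissue (mice 2, 4, 7, 9 and 10), the hippocampal estimate was 0.33 (adjusted *P* = 0.999), and without that of mouse 2 alone it was 0.31 (adjusted *P* = 0.539).

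The spread of *Herc2* between WT mice was large for a gene of its count. The coefficient of variation between mice was 35.6% in WT hippocampus, where reads alone would give 2.25%, and it exceeded that of 99.2% of the 4721 genes with a mean of at least 50 CPM, whose median was 6.61%. In WT cortex it was 18.2% (above 97.5% of such genes), but 9.16% in *Ube3a*+2 hippocampus (above 59.7%) and 7.26% in *Ube3a*+2 cortex (above 51.1%). Whether the spread differed between the genotypes was not tested.

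Within each region, the levels of *Herc2* moved with the slope of the library on transcript length. *Herc2* has a long transcript, 15.261 kb in its longest form, and 93 merged exons. For each library a slope was computed that says how far the log2 levels of all genes deviated from their mean over libraries per doubling of transcript length, and this comparison was chosen after the values were seen. The slope ran from -0.10 (WT mouse 2) to 0.03 in cortex and from -0.05 (WT mouse 3) to 0.08 (*Ube3a*+2 mouse 10) in hippocampus. Its mean was lower in WT than in *Ube3a*+2 mice, at -0.0196 against 0.0386 in hippocampus and -0.0222 against 0.0032 in cortex. The ranges of the genotypes overlapped in both tissues. Slope and genotype are thus not independent in these libraries. Pearson's r between the slope and the log2 CPM of *Herc2* was 0.91 over the 10 cortex libraries (Spearman's rho 0.85, and r 0.80 without the 2 libraries with the most extreme slopes) and 0.60 over the 10 hippocampus libraries (rho 0.60, and r 0.63 without 2). *Cyfip1*, with a transcript of 6.44 kb, had r of 0.93 in cortex (rho 0.96) and -0.25 in hippocampus (rho -0.12). The remaining members have shorter transcripts. Their r in cortex ran from -0.14 (*Oca2*) to 0.57 (*Tubgcp5*, rho 0.79, and r 0.96 without 2). In hippocampus it ran from -0.56 (*Oca2*) to 0.46 (*Nipa1*). Over all 20 libraries r was 0.35 for *Herc2*, and from -0.34 (*Oca2*) to 0.49 (*Nipa1*) for the other members. The part of the slope in these levels was not tested beyond the following correction. The slope is computed from the same libraries as the levels, and the 2 libraries of a mouse are not independent. Each library was corrected for GC content and merged exon length, whereas the slope used the longest transcript. After this correction, the log2 fold change of *Herc2* between the genotypes was 0.02 in hippocampus and 0.13 in cortex.

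**Figure D2:**
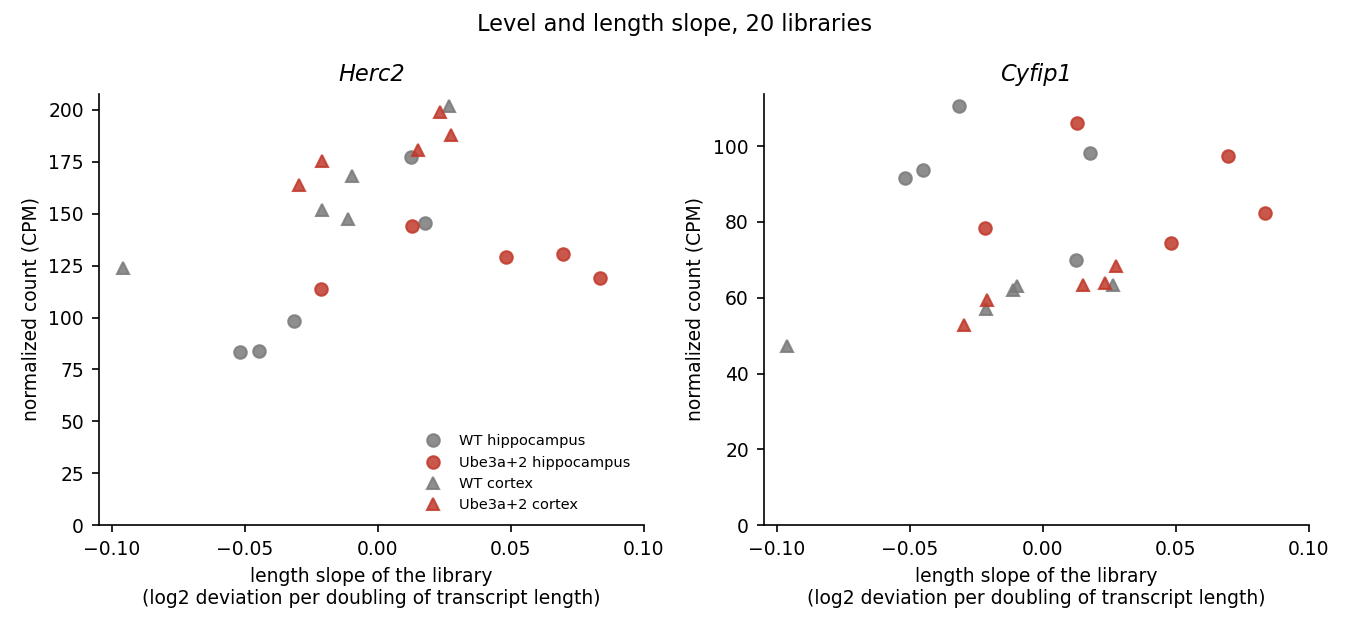
Normalized counts of *Herc2* and *Cyfip1* (CPM, y axis from 0) against the length slope of the library (x axis, log2 deviation per doubling of transcript length); each point is 1 of 20 libraries, circles are hippocampus, triangles cortex, grey WT and red *Ube3a*+2. In cortex both genes were higher in libraries with a higher slope (r = 0.91 and 0.93), and among the cortex libraries that of WT mouse 2, with a slope of -0.10, was lowest for both.

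*Cyfip1* was at 98.3, 69.9, 91.6, 93.8 and 110.7 CPM in hippocampus of WT mice 1 to 5 and at 106.1, 78.4, 97.5, 74.4 and 82.5 CPM in *Ube3a*+2 mice 6 to 10. In cortex it was at 63.4, 47.3, 57.1, 62.1 and 63.1 CPM in WT mice and at 59.4, 52.7, 63.5, 64.0 and 68.3 CPM in *Ube3a*+2 mice. The genotypes overlapped in both tissues, with WT mouse 2 the lowest in each. The log2 fold change was -0.08 in hippocampus (-0.36 to 0.19, adjusted *P* = 0.863) and 0.07 in cortex (-0.12 to 0.26, adjusted *P* = 0.975).

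*Oca2* and *Atp10a* were close to the limit of detection. *Oca2* had 19 to 55 counts per library, 1.85 to 3.12 CPM in WT hippocampus and 1.32 to 3.32 in *Ube3a*+2 hippocampus. Its log2 fold change with both tissues summed was -0.05 (-0.41 to 0.32). *Atp10a*, the member nearest to the mouse's own *Ube3a*, had 13 to 65 counts. It was at 1.04 to 2.71 CPM in WT and 0.775 to 2.96 in *Ube3a*+2 hippocampus. In cortex it was at 0.962 to 2.49 CPM in WT and 1.33 to 3.88 in *Ube3a*+2 mice. Its estimate was 0.24 in hippocampus, 0.28 in cortex and 0.27 with both summed, but the interval of the last ran from -0.23 to 0.76 (SE 0.23, adjusted *P* = 0.827). The interval allowed a rise of *Atp10a* by up to 69.4%, and the estimate varied widely between fits. With a mouse left out, the hippocampal value lay between 0.088 and 0.47 and the cortical one between 0.071 and 0.44. The estimate was 0.060 in cortex with the labelled sex in the fit, a label that the sex-linked genes of WT mice 3 and 5 went against. In hippocampus the estimate was -0.24 (adjusted *P* = 0.999) without the 5 libraries that stood apart on markers of neighbouring tissue.

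**Figure D3:**
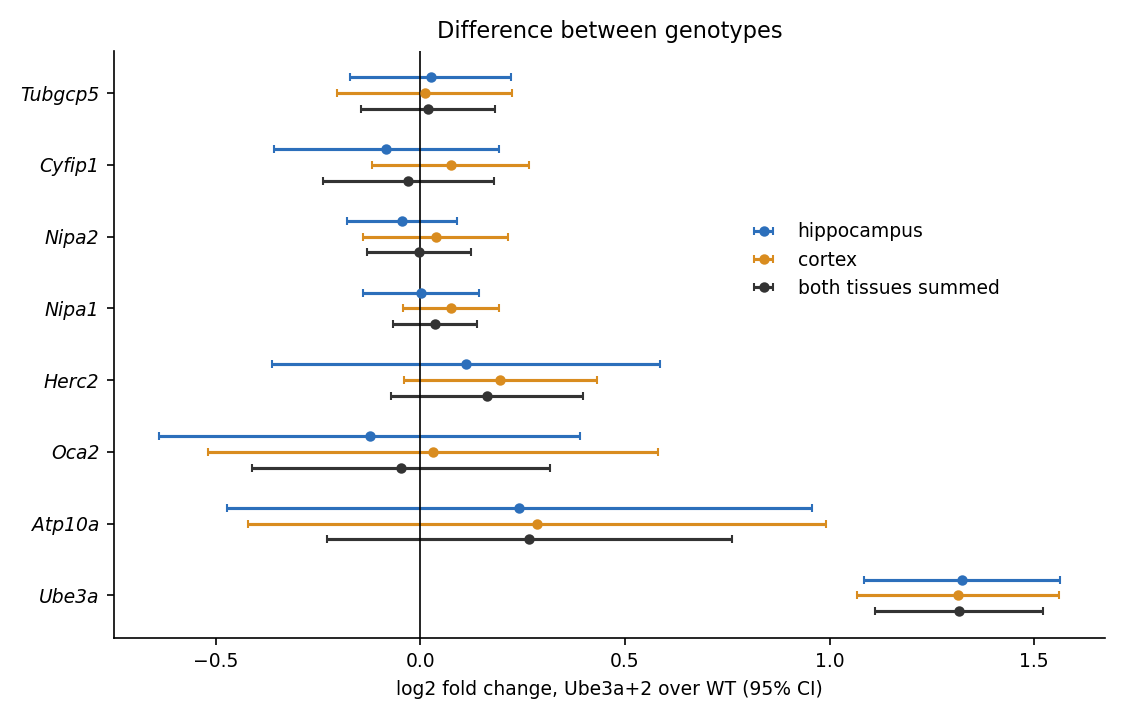
Log2 fold change of *Ube3a*+2 over WT (x axis) for each member and *Ube3a*, with 95% confidence intervals, in hippocampus (5 against 5 libraries), cortex (5 against 5) and with both tissues of a mouse summed (5 against 5 mice). Every interval of a member includes 0, those of *Oca2* and *Atp10a* are the widest, and *Ube3a* lies at 1.32, 1.31 and 1.32.

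Between the regions, *Cyfip1* was higher in hippocampus and *Herc2* was higher in cortex. Both passed the test, and the other 5 members did not, so 2 of 7 were called (1 in each direction) where 50.9% of all genes tested were called, 25.3% higher and 25.6% lower in hippocampus. A share of 2 in 7 is not above that background. The median log2 difference of the members was 0.06, beside -0.01 over all genes. These are bulk tissues, in which fewer cells of a type and less RNA per cell cannot be told apart.

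*Cyfip1* was at 90.3 ± 13.6 CPM (SD, n = 10 mice) in hippocampus and 60.1 ± 6.20 CPM in cortex, and the regions did not overlap (69.9 to 110.7 against 47.3 to 68.3 CPM). It was 1.503-fold higher in hippocampus, a log2 difference of 0.59 (SE 0.08, adjusted *P* = 4.96e-06). The hippocampus library was above the cortex library in 10 of 10 mice, by 0.22 to 0.84 on the log2 scale. The shares of all genes with no overlap, or with the same direction in every mouse, are not given here. With the genotypes apart, 37.1% of genes were called within WT mice and 33.2% within *Ube3a*+2 mice, among them 1 and 2 members. The difference of *Cyfip1* was 0.66 within WT mice (adjusted *P* = 0.000137) and 0.51 within *Ube3a*+2 mice (adjusted *P* = 0.00193). In the 5 hippocampus libraries that stood apart on markers of neighbouring tissue *Cyfip1* was at 69.9 to 93.8 CPM, and in the other 5 at 91.6 to 110.7 CPM. These ranges overlapped, and the contrast was not tested. Without the 5 libraries that stood apart the log2 difference between regions was 0.75 (adjusted *P* = 2.33e-07). WT mouse 2, with the most neocortical markers in its hippocampus library, had the lowest *Cyfip1* there, and the part of these markers in that value was not tested.

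Genes that work with *Cyfip1* were called in both directions. Of 13 genes of the WAVE complex and its FMRP link, all were tested, 5 were higher and 4 lower in hippocampus, where 25.3% and 25.6% of all genes were, with a median of 0.07 beside -0.01 over all genes. These shares of all genes are the background for each list of partners that follows. *Nckap1*, the WAVE subunit that binds CYFIP1 directly, was at 639 ± 65.4 CPM in hippocampus and 465 ± 20.9 in cortex, a log2 difference of 0.46 (adjusted *P* = 2.56e-07). *Nckap1l*, its form in blood and immune cells (0.41, adjusted *P* = 0.0129), and *Wasf2*, a WAVE protein of many cell types (0.38, adjusted *P* = 0.000145) were also higher in hippocampus. *Abi2*, another subunit, was lower there, at 289 ± 29.2 against 365 ± 16.8 CPM (-0.34, adjusted *P* = 1.17e-05). None of the 13 was called between genotypes in any comparison.

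*Herc2* had the opposite direction, at 123 ± 29.4 CPM (n = 10) in hippocampus and 170.0 ± 24.3 CPM in cortex. The log2 difference was -0.47 (SE 0.12, adjusted *P* = 0.00388), so that hippocampus had 0.722 times the cortical level (95% confidence interval 0.603 to 0.864). The regions overlapped (83.4 to 177.3 against 123.9 to 201.9 CPM), but the hippocampus library was below the cortex library in 9 of 10 mice, with log2 differences from -0.86 to -0.28. WT mouse 2 was the exception, at 177.3 CPM in hippocampus and 123.9 in cortex. It combined the hippocampus library richest in neocortical markers with the cortex library of the lowest length slope. Of all libraries, that cortex library also had the fewest reads on genes (14191093, 69.7% of its reads) and the largest share not aligned (8.66%). The part of any of these in the reversal was not tested.

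Within WT mice the difference of *Herc2* was -0.43 and missed the threshold (adjusted *P* = 0.0608), and within *Ube3a*+2 mice it was -0.51 (adjusted *P* = 0.0314). The difference between these was tested as the interaction and was -0.08 (SE 0.25, adjusted *P* = 0.998). Without WT mouse 2 the WT difference was -0.69 (adjusted *P* = 0.00127), while the *Ube3a*+2 difference lost its call when any of mice 6, 7, 8, 9 and 10 was left out (-0.57, -0.51, -0.52, -0.47 and -0.47, with adjusted *P* from 0.0506 to 0.107). Averaged over the genotypes, *Herc2* kept its call with every mouse left out in turn (-0.60 to -0.43, adjusted *P* from 7.14e-05 to 0.0149), without the 5 hippocampus libraries that stood apart (-0.47, adjusted *P* = 0.00792), and after the correction for length and GC content (-0.43, adjusted *P* = 0.000934). The mean length slope was 0.0095 in hippocampus and -0.0095 in cortex.

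**Figure D4:**
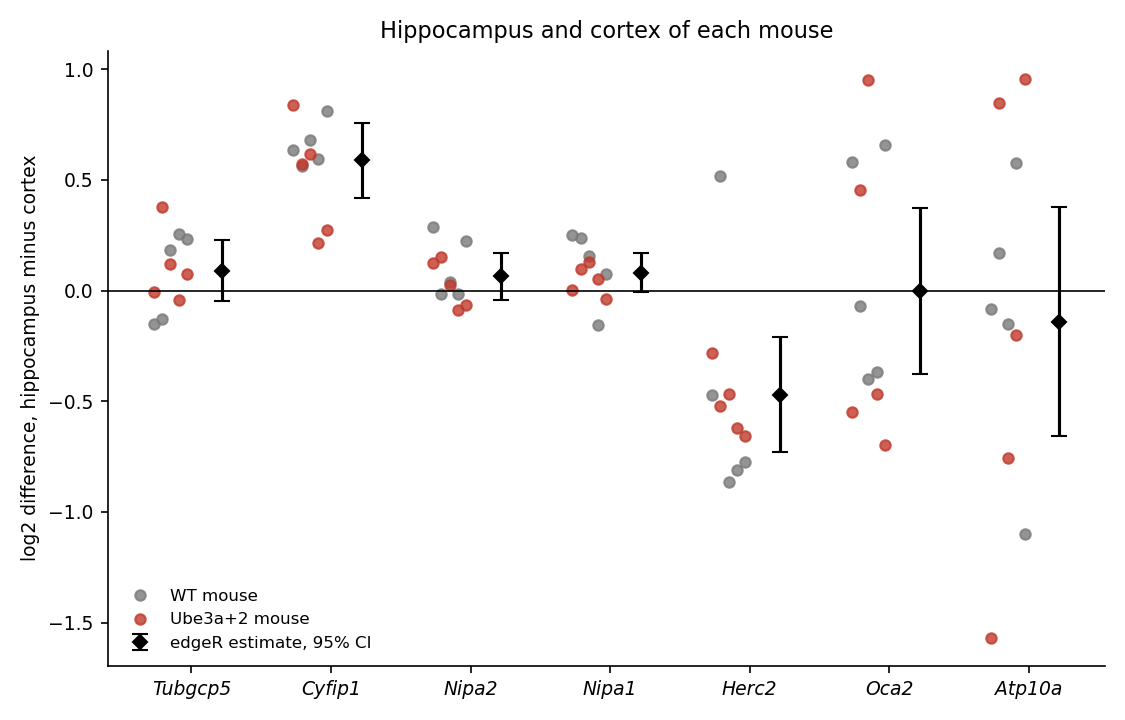
Log2 difference between the hippocampus and the cortex library of each mouse (y axis; grey points WT, red points *Ube3a*+2) for the 7 members, beside the edgeR estimate over 20 libraries with its 95% confidence interval (black). *Cyfip1* is above 0 in 10 of 10 mice and *Herc2* below 0 in 9 of 10, and the points of *Oca2* and *Atp10a* scatter to both sides.

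Of 12 relatives and partners of *Herc2*, all tested, 5 were lower and 1 higher in hippocampus, with a median of -0.14. That 6 of 12 were called is close to the 50.9% of all genes, and the 4 with the largest differences are named. *Herc1*, the other giant HERC ligase, was at 101 ± 17.5 CPM in hippocampus and 137 ± 21.6 in cortex (log2 difference -0.44, adjusted *P* = 0.000933). *Mapk6*, a kinase found in a complex with HERC2, differed by -0.41 (adjusted *P* = 6.15e-07), *Rnf8*, a ligase of the DNA damage response, by -0.26 (adjusted *P* = 0.0396) and *Usp33*, a deubiquitinase, by -0.22 (adjusted *P* = 0.00125). None of the 12 was called between genotypes.

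The other 5 members did not pass the test between regions. *Nipa1* was at 97.2 ± 6.18 CPM in hippocampus and 91.9 ± 5.07 in cortex, a log2 difference of 0.08 (-0.01 to 0.17, adjusted *P* = 0.109), and was higher in hippocampus in 8 of 10 mice. Of the fits that leave out a mouse, the one without mouse 4, 1 of its 2 exceptions, called it (0.11, adjusted *P* = 0.0248, and 0.18 within WT, adjusted *P* = 0.0282). *Nipa2* differed by 0.06 (-0.04 to 0.17) and *Tubgcp5* by 0.09 (-0.05 to 0.23), each higher in hippocampus in 6 of 10 mice. The 3′ end of *Nipa2* overlaps that of *Cyfip1*, as described above. *Oca2* differed by 0.00 (-0.38 to 0.37) and *Atp10a* by -0.14 (-0.66 to 0.38), and both were lower in hippocampus in 6 of 10 mice.

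For these members too the related genes were counted. Of 10 genes of the gamma-tubulin ring complex, the partners of *Tubgcp5*, 4 were higher and 2 lower in hippocampus (median 0.08), beside the 50.9% of all genes called. The largest difference was that of *Nedd1*, which recruits the complex to the spindle and centrosome, at 5.19 ± 0.726 against 3.19 ± 0.673 CPM (0.70, adjusted *P* = 5.76e-05), and *Tubg2*, the gamma-tubulin of the brain, was lower (-0.35, adjusted *P* = 5.72e-05). *Cdk5rap2* (0.24) and *Mzt1* (0.20), which help to anchor the complex, were higher (adjusted *P* = 0.00387 and 0.0283). Of 7 relatives and partners of *Nipa1* and *Nipa2*, 6 were tested and 2 were lower: *Nipal4* at 0.362 ± 0.175 against 0.713 ± 0.279 CPM, which is a handful of reads (-0.94, adjusted *P* = 0.00971), and *Bmpr2*, the BMP receptor that NIPA1 restrains (-0.31, adjusted *P* = 0.00623).

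Of 16 P4-ATPases and CDC50 subunits, the family of *Atp10a*, 13 were tested, 2 were higher and 5 lower in hippocampus (median -0.06), beside the 50.9% of all genes called. *Atp8b1* (-1.30, adjusted *P* = 2.86e-05), *Atp10b* (-0.996, adjusted *P* = 1.01e-05) and *Atp10d* (-0.92, adjusted *P* = 0.000117) had the largest differences, so that both *Atp10* relatives of *Atp10a* were lower in hippocampus. *Atp11b*, the most abundant of these 4, was at 53.3 ± 10.4 against 76.6 ± 15.0 CPM (-0.52, adjusted *P* = 0.000421). Over all lists of partners, 54 genes were tested between genotypes in hippocampus, 55 in cortex and 57 with both summed, and 0 were called by edgeR in each, with 4, 4 and 3 (7.41%, 7.27% and 5.26%) at an unadjusted *P* value under 0.05, beside 7.21%, 4.44% and 6.01% of all genes.

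Each of 10 melanocyte and pigment genes had fewer reads over the 20 libraries than *Oca2*. Of these genes only *Pmel* and *Mitf* passed the filter, and neither differed between regions or genotypes by the test. Tyrosinase (*Tyr*) had 62 counts over the 20 libraries, *Tyrp1* 41, *Dct* 39 and *Mlana* 8, and *Mlana* was at 0 in 15 of 20 libraries. *Oca2* had 745 counts over the same libraries and at least 19 in each, close to *Mitf*, a transcription factor also used outside pigment cells, with 677 and at least 17, while *Pmel* had 262.

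The interaction of genotype and region called 0 of 7 members and 0% of 15661 genes by edgeR (590 at an unadjusted *P* value under 0.05, and 0 genes by DESeq2, with 740). The estimates of the members ran from -0.15 to 0.02, and the narrowest interval was that of *Nipa1*, -0.24 to 0.10.

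Per length of exon, the members spread over most of the range of the genes that passed the filter. *Nipa1* was the highest in both regions, at 30.5 ± 1.94 CPM per kb in hippocampus (n = 10) and 28.9 ± 1.59 in cortex, above 88.8% and 87.6% of these genes, while *Atp10a*, the lowest, was above 8.8% and 11.5%. In cortex *Herc2* followed at 10.5 ± 1.504 CPM per kb, then *Cyfip1* at 5.03 ± 0.519, *Nipa2* at 4.93 ± 0.433, *Tubgcp5* at 2.05 ± 0.208, *Oca2* at 0.582 ± 0.161 and *Atp10a* at 0.412 ± 0.162. The neighbours *Cyfip1* and *Nipa2* overlapped and kept their order in 8 of 10 libraries, as did *Oca2* and *Atp10a*, and the other neighbours in this order did not overlap.

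In hippocampus *Herc2* (7.58 ± 1.82 CPM per kb) and *Cyfip1* (7.56 ± 1.14) could not be placed apart, with *Herc2* above in 6 of 10 libraries. *Nipa2* (5.15 ± 0.276), *Tubgcp5* (2.19 ± 0.198), *Oca2* (0.581 ± 0.151) and *Atp10a* (0.374 ± 0.135) followed, and among these only *Oca2* and *Atp10a* overlapped with their neighbour, with *Oca2* above in 7 of 10. Merged exons make a gene with many alternative exons look lower. With the longest transcript in place of merged exons, *Cyfip1* rose to 14.0 ± 2.12 CPM per kb and *Nipa2* to 9.28 ± 0.497 in hippocampus, both above *Herc2* at 8.03 ± 1.93, while the order in cortex stayed as given. The order of the levels was not that of the CG counts. *Nipa1*, the highest, had 18 CG before its RefSeq start, and *Atp10a*, the lowest, had 14, more than *Oca2* with 2.

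**Figure D5:**
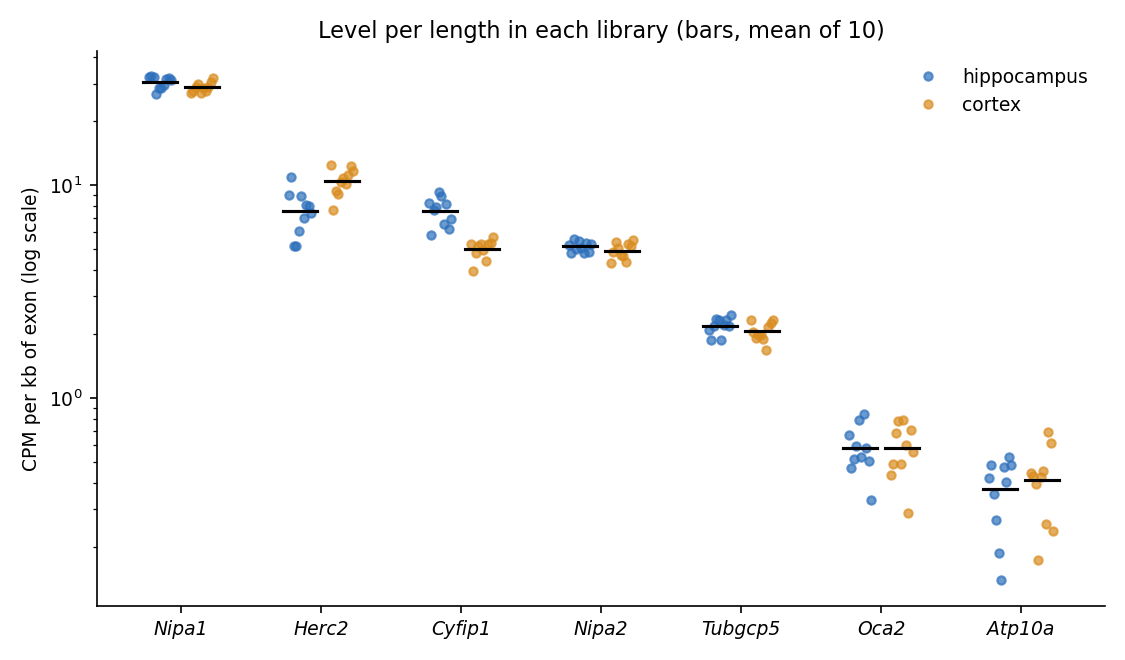
Level per length (CPM per kb of merged exon, log scale) of the 7 members in 10 hippocampus libraries (blue) and 10 cortex libraries (orange); each point is 1 library and bars are means. *Nipa1* lies near 30 in both regions, *Herc2* is higher in cortex and *Cyfip1* in hippocampus, and *Oca2* and *Atp10a* lie below 1.

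Within the groups, the members did not vary closely together between libraries. After the mean of each group was taken out, Pearson's r of log2 CPM over the 20 libraries ran from -0.48 (*Cyfip1* and *Atp10a*) to 0.45 (*Nipa2* and *Nipa1*) among the 21 pairs of members, with a median of 0.00. For each member, the 3 genes with the highest r over all 20 libraries were looked up, and depth, region and length slope are shared by such points. *Herc2* was most like *Birc6* (r = 0.985, rho 0.982), *Kif1b* (0.981, rho 0.979) and *Nav1* (0.980, rho 0.971), whose longest transcripts of 15.768, 10.233 and 13.117 kb are among the longest 0.339%, 2.34% and 0.826% of genes. *Cyfip1* was most like *Cttnbp2* (0.977), *Kcnk1* (0.972) and *Hapln1* (0.970), with transcripts of 5.462, 2.235 and 5.715 kb.

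The remaining members had looser matches. Among the closest genes to *Nipa1* were *Fer* (0.766) and *Elovl4* (0.745), and *Nipa2* was most like *Gadl1* (0.863), *Elf4* (0.838) and *Zfp260* (0.828). Among the closest to *Tubgcp5* were *Tlr13* (0.777) and *Cdk8* (0.765), of which *Tlr13* had a mean of 0.984 CPM. *Atp10a* was most like *Myh11* (0.836), *Brinp3* (0.828) and *Ric3* (0.750), and *Oca2* like *7530428D23Rik*, *Gm10110* and *Gm26881*, all with r under 0.67.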

How the data were processed

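Poly(A) RNA of hippocampus and cortex of 10 mice was sequenced from stranded libraries. The authors deposited 1 table of raw read counts per library, whole numbers of reads per gene, made per the labels with HISAT2 2.1.0 and HTSeq 0.11.2 on GRCm38 (mm10); the annotation release and the strand setting are not given in the sources used here. Lines that name no gene (reads outside genes, ambiguous, not unique or not aligned) were left out of every total; 69.7% to 81.2% of reads were on genes. Of the identifiers, 98.9% matched GENCODE M21, which gave positions and lengths; promoter sequences were read from RefSeq (GRCm38.p6).

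Counts were tested in R 4.3.3 with edgeR 4.0.16 (TMM, filterByExpr with its minimum count of 10, robust quasi-likelihood test) and Benjamini-Hochberg adjustment over all genes tested, with 0.05 as the threshold. Genotypes were compared in the 10 libraries of a tissue and in the summed counts of each mouse, and regions in a fit of 4 groups over 20 libraries. Standard errors and intervals came from the F statistic. CPM are TMM-normalized, and log2 CPM used a prior count of 2. Alternatives were DESeq2 1.42.0, its size factors, no filter, the labelled sex, the mouse as block, and each mouse left out. A further alternative removed each library's trend on merged exon length and GC (splines, 5 degrees of freedom). Leaving out hippocampus libraries with markers of neighbouring tissue was added after the values were seen. The genotype fits, the regional fit averaged over genotypes and that fit with the mouse as block were tested on simulated data. The length correction was tested there on a planted trend in hippocampus. The regional contrasts within a genotype, the interaction and the other alternatives were not tested in this way.

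The mouse numbers of the labels pair hippocampus and cortex of 1 animal. As a check, deviations from the group means in hippocampus and cortex were correlated over genes for each mouse; the median r was 0.215 (-0.0367 in mouse 4 to 0.248), above 0.1 in 9 of 10 mice. *P* values of the genotype comparisons measure the spread between these mice. Those of the regional comparisons and the interaction measure the spread between libraries. Hippocampus and cortex of a mouse were taken there as independent, except with the mouse as block. Members, lists of partners and tests were chosen with earlier results of these data known. Named genes are the 7 members, *Ube3a*, partners called between genotypes, up to 4 called partners per list with the largest regional difference, and the 3 genes most correlated with each member. Some of the latter are not reported here. No column of values was left unmapped, and libraries were left out only in the alternatives.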

Additional observations from a re-analysis of the deposited data

Results flagged for a closer look

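In WT cortex, *Atp10a* of mouse 4 was at 0.962 CPM (15 counts) while the other 4 WT mice were between 2.20 and 2.49 CPM, so that its gap to the nearest mouse made up 0.813 of the range of the group, past Dixon's critical value of 0.71 for 5 samples. This was the only such sample among the 28 combinations of member and group that were searched, where chance gives about 1.4. Counting error alone gives a coefficient of variation of 17.8% at the counts of this group, in which it was 30.5%.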

How the results depend on the processing

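No member was called between genotypes, or by the interaction, under the alternatives or with a mouse left out (0 in each). Without WT mouse 1, 1 member had an unadjusted edgeR *P* value under 0.05 between genotypes in cortex, and 1 in the sum. Over all genes these fits had 682 of 15058 and 935 of 16426 under that value. Averaged over genotypes, *Cyfip1* and *Herc2* were called between regions under each alternative, and 2 to 3 members with a mouse left out. With the mouse as replicate block, the differences were 0.59 for *Cyfip1* and -0.49 for *Herc2* (adjusted *P* = 0.00705), and the block changed no call of a member. Within WT, 1 member was called, but 2 after the length and GC correction (*Herc2* -0.37, adjusted *P* = 0.034, range over alternatives 0.00313 to 0.146), and 2 without the hippocampus library of mouse 2 or without the 5 libraries that stood apart, both chosen after the values were seen. Within *Ube3a*+2 mice 2 were called, but 1 without the filter on low counts (*Herc2* -0.51, adjusted *P* = 0.0806) and 1 without the 5 libraries (-0.39, adjusted *P* = 0.152). With a mouse left out, 1 to 2 were called in each genotype. The cause was not tested. Over all genes, where edgeR called 1 between genotypes in each comparison, DESeq2 called 5 in cortex and 9 in the sum, and edgeR with the labelled sex called 2 in hippocampus. Of 812 values of members under alternatives, 720 kept their direction and side of the threshold. *Oca2* and *Atp10a* had 13 to 65 counts, and their coefficients of variation between mice (21.0% to 45.6%) were above counting error (15.7% to 17.8%).

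Signs turned only for differences that were not called, the largest being that of *Atp10a* between genotypes in hippocampus (0.24). After the length and GC correction, *Tubgcp5* was at -0.032 between genotypes in hippocampus, -0.023 in cortex, -0.022 in the sum and -0.00689 in the interaction, and *Nipa2* at -0.035 between regions in *Ube3a*+2 mice. With the labelled sex, *Nipa1* in hippocampus was at -0.012. *Oca2* between regions was at 0.00265 with DESeq2, 0.00218 with its size factors, 0.00492 without a filter and 0.013 with the block. Without the 5 libraries, *Tubgcp5* was at -0.065, *Cyfip1* at 0.019, *Nipa1* at -0.044 and *Atp10a* at -0.24 between genotypes in hippocampus, *Oca2* at 0.057 between regions, and *Tubgcp5* at -0.069 and *Herc2* at 0.14 in the interaction. Without the hippocampus library of mouse 2, *Tubgcp5* was at -0.019 between genotypes, *Oca2* at 0.048 between regions, and *Tubgcp5* at -0.033, *Herc2* at 0.11 and *Atp10a* at 0.12 in the interaction.

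With a mouse left out in turn, the genotype estimate in hippocampus ran from 0.011 to 0.31 for *Herc2*, -0.019 to 0.083 for *Tubgcp5*, -0.041 to 0.032 for *Nipa1* and -0.32 to 0.015 for *Oca2*. In cortex it ran from -0.037 to 0.075 for *Tubgcp5*, -0.0031 to 0.085 for *Nipa2* and -0.094 to 0.20 for *Oca2*. In the sum it ran from -0.025 to 0.058 for *Tubgcp5*, -0.11 to 0.027 for *Cyfip1*, -0.032 to 0.031 for *Nipa2* and -0.14 to 0.036 for *Oca2*. The regional difference of *Oca2* ran from -0.099 to 0.070, from -0.094 to 0.21 within WT and from -0.27 to 0.066 within *Ube3a*+2 mice. That of *Atp10a* ran from -0.23 to 0.084 within WT and -0.39 to 0.064 within *Ube3a*+2 mice, and that of *Nipa2* from -0.0026 to 0.061 within the latter. The interaction ran from -0.047 to 0.066 for *Tubgcp5*, -0.17 to 0.19 for *Herc2*, -0.35 to 0.015 for *Oca2* and -0.27 to 0.19 for *Atp10a*.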
